A study of Homo sapiens with 12 samples.

Results

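The genes described here are 35 genes of cholesterol and fatty acid synthesis, sterol uptake and their control, most of them targets or regulators of the sterol regulatory element-binding proteins (SREBPs). They were chosen by gene symbol from a list of pathway members, a list drawn up with earlier results of these data known, and all 35 were among the 60612 genes of the HCCLM3 table and the 32507 genes of the LX2 table. They fall into 5 steps. On the route from acetyl-CoA through mevalonate to farnesyl diphosphate lie 7 genes, and 11 lie on the route from there through squalene to cholesterol. Another 3 act in sterol uptake and transport, 9 make or modify fatty acids, and 5 control the SREBPs. The list does not hold every enzyme of these routes. Each of the 35 also passed the filter on low counts in both lines.

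SREBPs are transcription factors made as membrane proteins of the endoplasmic reticulum, where they are bound by the escort protein SCAP. When membrane cholesterol is low, SCAP carries the SREBP to the Golgi, where proteases release the part that enters the nucleus and binds sterol regulatory elements near its target genes. When cholesterol is ample, SCAP is held back by INSIG proteins, and transcription of the targets falls. SREBF2 encodes the form that acts mainly on cholesterol synthesis and SREBF1 the forms that act mainly on fatty acid synthesis, and in liver both programmes feed lipoprotein secretion.

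RNA was sequenced from 4 groups of 3 libraries. They were HCCLM3 with LX2 (HCCLM3 cells cultured in a tumor-on-a-chip together with LX2 cells), HCCLM3 alone in the chip, LX2 with HCCLM3, and LX2 alone. HCCLM3 is a human hepatoma line and LX2 a human hepatic stellate cell line, and the genotype of all 12 libraries is given as WT. Both are established lines, and the time in culture and the way the lines were parted after co-culture are not given in the sources used. The labels do not say that the 3 replicates of a group were separate cultures, so the spread behind each p-value may be technical.

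Total counts lay between 65675929 and 68178411 in HCCLM3 with LX2, 68088914 and 77712308 in HCCLM3 alone, 64438991 and 69891842 in LX2 with HCCLM3, and 61836616 and 65314354 in LX2 alone. Markers moved with co-culture in HCCLM3. Erythroid markers, 9 genes, held 5055, 4350 and 4660 counts in HCCLM3 with LX2, against 0, 6 and 0 in HCCLM3 alone, where 7 of the 9 had no count, HBG1, HBG2, ALAS2, AHSP and SLC4A1 among them. Leukocyte markers, 12 genes, held 3129, 2720 and 2656 counts in HCCLM3 with LX2 and 1199, 1151 and 990 in HCCLM3 alone, where 7 of them had no count. Levels are given in FPKM, fragments scaled by gene length and library size. Summed epithelial markers (8 genes) stood at 974 to 1074 FPKM in HCCLM3 with LX2 and 1625 to 1753 FPKM in HCCLM3 alone. Summed hepatocyte markers (12 genes) stood at 69.8 to 71.2 FPKM in HCCLM3 with LX2 and 8.34 to 8.48 FPKM in HCCLM3 alone. Of the 12, only 4 reached 1 FPKM in HCCLM3 with LX2 and 2 in HCCLM3 alone. APOA2 and TTR had no count in HCCLM3 with LX2, while every gene of the list had counts in HCCLM3 alone. Of 12 stellate and fibroblast markers, 4 reached 1 FPKM in LX2 with HCCLM3 and 5 in LX2 alone, where the collagens COL1A2 and COL6A3 and the matrix protein SPARC had no count. Their summed level was 165 to 197 FPKM in LX2 with HCCLM3 and 162 to 196 FPKM in LX2 alone. In LX2 the hepatocyte list (10 of its 12 genes in the table) summed to 186 to 205.6 FPKM with HCCLM3 and 67.1 to 68.4 FPKM alone, and CPS1 was its only gene above 1 FPKM. Of the epithelial markers, 4 with no count in LX2 alone were found in LX2 with HCCLM3 at 0.168% (KRT19), 0.897% (CEACAM6), 0.238% (AGR2) and 0.445% (CDH17) of their counts per library total in HCCLM3 alone. The part of these transcripts in the results on the 35 genes was not tested. In such bulk libraries, fewer cells of a type and less RNA per cell cannot be told apart.

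Most of the synthesis genes rose in LX2 grown with HCCLM3, and in HCCLM3 grown with LX2 those of the sterol branch mostly fell or did not pass the test. In LX2 with HCCLM3, 26 of the 35 genes rose and 0 fell against LX2 alone, by edgeR's quasi-likelihood test at a Benjamini-Hochberg adjusted p under 0.05. DESeq2 also called 26 higher and 0 lower, and at an unadjusted edgeR p under 0.05 the only gene lower was NSDHL. Of all 19671 genes tested in LX2, 31.9% were called (15.4% higher, 16.6% lower). The median log2 fold change (co-culture over alone) of the 35 was 0.86 in LX2, and that of all genes tested was 0.015. In HCCLM3 with LX2, 3 of the 35 rose and 12 fell against HCCLM3 alone, where 21.7% of all 18045 genes tested were called (10.1% higher, 11.6% lower). The share that fell was above its background, and the share that rose was near it. Their median log2 fold change in HCCLM3 was -0.16, and that of all genes tested was 0.033.

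The HCCLM3 split moved with the scaling, which by default used TMM factors to correct library sizes for differences in composition. On library totals without TMM factors 6 of the 35 were called higher and 9 lower, the median of the 35 was 0.013 and that of all genes tested 0.21. The distance between both medians was much the same under each scaling. In LX2 the split was 26 higher and 0 lower under both. By FPKM, the 3 libraries of HCCLM3 with LX2 lay wholly above those of HCCLM3 alone for 9 of the 35 genes and wholly below for 12, as did 31.7% and 12.5% of all genes tested. In LX2 the co-cultured libraries lay wholly above for 26 and wholly below for 1 (NSDHL), against 26.1% and 22.0% of all genes tested. Replicates were also tighter in LX2, where the median SE of the 35 log2 fold changes was 0.055, against 0.109 in HCCLM3.

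**Figure D1:**
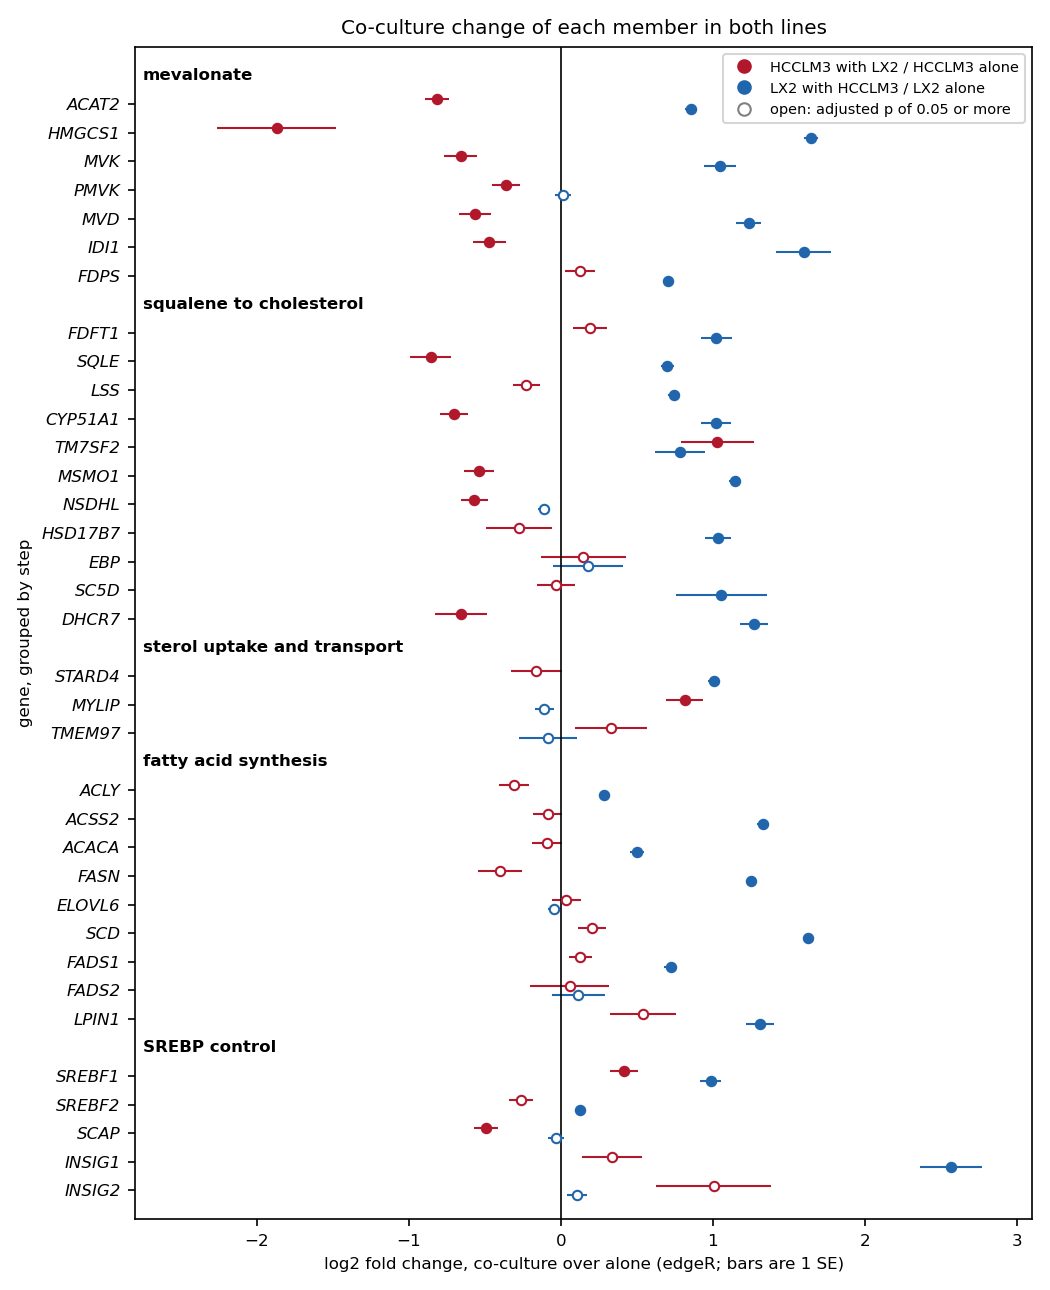
Log2 fold change (co-culture over alone) of each of the 35 genes in HCCLM3 and in LX2, grouped by step, with bars of 1 SE; filled points have an adjusted p under 0.05 (edgeR). The LX2 points lie mostly to the right of 0, with INSIG1 highest at 2.57, while the sterol genes in HCCLM3 lie mostly to the left, with HMGCS1 lowest at -1.87.

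The direction was opposite for 9 genes, which fell in HCCLM3 with LX2 and rose in LX2 with HCCLM3. These were ACAT2, HMGCS1, MVK, MVD, IDI1, SQLE, CYP51A1, MSMO1 and DHCR7, all in the route to cholesterol. Of the 16155 genes tested in both lines, 347 (2.15%) were called in that combination. The HCCLM3 calls of HMGCS1, IDI1 and DHCR7 were each lost when certain single libraries were left out, as given below. TM7SF2 and SREBF1 rose in both lines, a pattern held by 2.63% of genes tested in both. No member was called higher in HCCLM3 and lower in LX2 (1.9% of genes tested in both), or lower in both (3.7%).

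The promoters are shown here because the SREBPs act through them, together with the CCAAT-binding factor NF-Y and Sp1, which bind near sterol regulatory elements in known targets. RefSeq sequence (GRCh38.p14), 250 bases before to 50 after the annotated start, was matched by symbol for 31 of the 35 genes (ACAT2, FDFT1, SQLE and FASN were not matched). The 250 bases before the start are given below, 5′ to 3′ on the gene's strand, for HMGCS1 (chr5:43313413-43313662, minus strand), MSMO1 (chr4:165327419-165327668, plus strand), SCD (chr10:100346983-100347232, plus strand), INSIG1 (chr7:155297628-155297877, plus strand) and SREBF2 (chr22:41832855-41833104, plus strand). The first 4 rose in LX2, by log2 fold changes from 1.15 (MSMO1) to 2.57 (INSIG1), and SREBF2 has the sterol regulatory element that was searched for. Each promoter printed holds a CCAAT match, which 11 of the 31 lack, CYP51A1, DHCR7 and SREBF1 among them. The RefSeq start lies within the gene as the tables give it for HMGCS1, MSMO1, INSIG1 and SREBF2. Capitals mark CCAAT (or ATTGG, its other strand), CACGTG and the sterol element.
HMGCS1: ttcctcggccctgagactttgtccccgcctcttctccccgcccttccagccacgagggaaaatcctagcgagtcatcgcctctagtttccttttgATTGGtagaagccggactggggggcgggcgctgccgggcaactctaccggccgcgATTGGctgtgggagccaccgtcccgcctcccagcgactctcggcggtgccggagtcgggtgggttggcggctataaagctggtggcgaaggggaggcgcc
MSMO1: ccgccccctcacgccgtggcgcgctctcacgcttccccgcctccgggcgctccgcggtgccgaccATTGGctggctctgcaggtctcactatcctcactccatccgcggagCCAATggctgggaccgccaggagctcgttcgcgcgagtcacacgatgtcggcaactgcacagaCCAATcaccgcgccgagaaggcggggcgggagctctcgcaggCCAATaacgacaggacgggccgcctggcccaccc
SCD: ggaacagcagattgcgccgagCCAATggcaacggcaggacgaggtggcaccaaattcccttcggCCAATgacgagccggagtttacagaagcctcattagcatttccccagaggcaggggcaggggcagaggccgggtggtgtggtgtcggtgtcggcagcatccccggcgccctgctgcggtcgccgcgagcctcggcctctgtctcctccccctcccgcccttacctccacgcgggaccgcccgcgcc
INSIG1: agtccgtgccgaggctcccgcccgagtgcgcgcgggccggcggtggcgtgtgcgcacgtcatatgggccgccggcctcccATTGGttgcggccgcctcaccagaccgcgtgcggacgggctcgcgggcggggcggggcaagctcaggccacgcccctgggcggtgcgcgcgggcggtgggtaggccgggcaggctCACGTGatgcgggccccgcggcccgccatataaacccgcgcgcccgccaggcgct
SREBF2: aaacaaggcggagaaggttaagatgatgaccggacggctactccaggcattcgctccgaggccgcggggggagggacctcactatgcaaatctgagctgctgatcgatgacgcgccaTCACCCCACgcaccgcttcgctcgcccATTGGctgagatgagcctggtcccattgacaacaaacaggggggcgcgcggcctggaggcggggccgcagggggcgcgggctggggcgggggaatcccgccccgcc

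CCAAT on either strand was present in 20 of the 31 promoters (64.5%), against 35.7% of all 27305 promoters in the RefSeq set and 36.4% of 15843 protein-coding ones. HMGCS1 has it 155 and 100 bases before its start, MSMO1 at 185, 139, 76 and 34 bases, SCD at 229 and 186 bases, and INSIG1 at 170 bases. Of the 31, 14 hold at least 2 matches and 7 at least 3, and MVK and NSDHL hold 5 each. Overlapping matches were counted separately, and those of NSDHL at 113 and 110 bases overlap, on opposite strands. Among the 20 genes with a CCAAT match 16 rose in LX2, and among the 11 without it 6 rose. For some genes the searched start lay far from where the gene begins in these data. The distance was 23223 bases for FADS2, 12315 for FADS1, 11520 for ACLY, 3825 for DHCR7, 2843 for ACSS2 and 1185 for SCAP. ACLY and ACSS2 had a match and the others of these had none, so the split is uncertain. A link of CCAAT to the rise was not tested. The GC box GGGCGG was present in 87.1% of the 31, against 44.6% of all promoters and 58.5% of protein-coding ones. The E-box CACGTG was present in 4 (12.9%), against 7.43% of all promoters, and INSIG1 has it 55 bases before its start. The sterol element searched, TCACNCCAC, was present in 1 of the 31 (3.23%), SREBF2, at 133 bases before its start, and in 1.15% of all promoters. The shorter CACNCCAC, which lies within it, was present in 4 of the 31 (12.9%) and in 5.74% of all promoters. These are matches of letters, and known elements that differ from these letters are not counted.

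The mevalonate step starts from acetyl-CoA. In LX2 with HCCLM3 6 of its 7 genes rose, all but PMVK, with a median log2 fold change of 1.05. In HCCLM3 with LX2 6 of 7 fell, all but FDPS, with a median of -0.57. HMGCS1, HMG-CoA synthase (chromosome 5, 43287470 to 43313512, minus strand), stood at 40.8, 40.6 and 40.7 FPKM in LX2 with HCCLM3, against 13.4, 12.8 and 11.98 FPKM in LX2 alone. The spread within each group was small beside the gap between groups, and HMGCS1 rose (log2 fold change 1.65, SE 0.046, adjusted p = 3.41e-06). In HCCLM3 the same gene stood at 1.22, 1.95 and 3.84 FPKM in HCCLM3 with LX2, against 6.39, 8.47 and 8.001 FPKM in HCCLM3 alone. The groups did not overlap, but the co-cultured libraries were unequal, with 638, 1056 and 2030 counts, and HMGCS1 fell (log2 fold change -1.87, SE 0.39, adjusted p = 0.0181). That call was lost without replicate 2 of HCCLM3 with LX2 (log2 fold change -1.75, adjusted p = 0.0653) and without replicate 2 of HCCLM3 alone (-1.80, adjusted p = 0.052).

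ACAT2, the thiolase that joins acetyl-CoA units (chromosome 6, 159762045 to 159779112, plus strand), stood at 42.8, 42.8 and 41.3 FPKM in LX2 with HCCLM3, against 21.8, 23.5 and 23.3 FPKM in LX2 alone. It rose there without overlap (log2 fold change 0.86, SE 0.042, adjusted p = 3.1e-05). In HCCLM3 ACAT2 stood at 15.02, 14.5 and 15.04 FPKM in HCCLM3 with LX2, against 23.7, 21.8 and 24.3 FPKM in HCCLM3 alone, and fell without overlap (log2 fold change -0.82, SE 0.080, adjusted p = 0.00147). ACAT2 overlaps TCP1 on the other strand, and the sources used name no strand setting for the counting, so its level is uncertain. MVK, mevalonate kinase (chromosome 12, 109573255 to 109598117, plus strand), stood at 2.34, 2.37 and 2.67 FPKM in LX2 with HCCLM3, against 1.26, 1.18 and 1.04 FPKM in LX2 alone, and rose (log2 fold change 1.05, SE 0.10, adjusted p = 0.000558). Its values in HCCLM3 were 3.59, 3.54 and 3.51 FPKM in HCCLM3 with LX2, against 5.57, 4.56 and 4.82 FPKM in HCCLM3 alone, and it fell (log2 fold change -0.66, SE 0.11, adjusted p = 0.00815). The groups of MVK did not overlap in either line; MVK overlaps MMAB on the other strand and is uncertain for the same reason.

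MVD, which decarboxylates mevalonate diphosphate (chromosome 16, 88651935 to 88663161, minus strand), stood at 10.8, 9.46 and 10.5 FPKM in LX2 with HCCLM3, against 4.57, 3.91 and 4.31 FPKM in LX2 alone, and rose (log2 fold change 1.24, SE 0.081, adjusted p = 0.000106). HCCLM3 held MVD at 3.55, 3.72 and 3.98 FPKM in HCCLM3 with LX2, against 5.17, 4.47 and 5.2 FPKM in HCCLM3 alone. All libraries of HCCLM3 with LX2 lay below those of HCCLM3 alone, and MVD fell (log2 fold change -0.57, SE 0.11, adjusted p = 0.0124). FDPS, farnesyl diphosphate synthase (chromosome 1, 155308748 to 155320666, plus strand), the branch point between sterols and protein prenylation, stood at 72.5, 76.7 and 72.2 FPKM in LX2 with HCCLM3, against 43.9, 44.7 and 44.3 FPKM in LX2 alone, and rose (log2 fold change 0.71, SE 0.033, adjusted p = 2.73e-05). For HCCLM3 the values were 53.2, 44.7 and 47.8 FPKM in HCCLM3 with LX2, against 40.6, 36.7 and 41.6 FPKM in HCCLM3 alone, higher in every co-cultured library by FPKM, and FDPS did not pass the test (log2 fold change 0.13, SE 0.097, adjusted p = 0.398). IDI1, the isopentenyl diphosphate isomerase, averaged 29.1 ± 5.82 FPKM in LX2 with HCCLM3 and 9.42 ± 1.59 FPKM in LX2 alone (SD, n = 3 each) and rose (log2 fold change 1.60, SE 0.18, adjusted p = 0.00104). It fell in HCCLM3 (log2 fold change -0.47, SE 0.11, adjusted p = 0.0251), as did PMVK, phosphomevalonate kinase (log2 fold change -0.36, SE 0.092, adjusted p = 0.0328), while PMVK did not pass the test in LX2 (log2 fold change 0.01, SE 0.053, adjusted p = 0.87). Both HCCLM3 calls were marginal: that of IDI1 was lost without replicate 1 of HCCLM3 with LX2 or without replicate 1, 2 or 3 of HCCLM3 alone (adjusted p = 0.0585 to 0.0667), and that of PMVK without any of 5 libraries, all but replicate 2 of HCCLM3 alone (adjusted p = 0.0708 to 0.0953).

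Between squalene and cholesterol, 9 of 11 genes rose in LX2 with HCCLM3, and in HCCLM3 with LX2 5 fell and 1 rose. Their medians were 1.02 in LX2 and -0.27 in HCCLM3. MSMO1, the methylsterol monooxygenase (chromosome 4, 165327667 to 165343164, plus strand), stood at 35.7, 35.7 and 34.5 FPKM in LX2 with HCCLM3, against 15.5, 16.02 and 15.4 FPKM in LX2 alone. The 3 libraries of each LX2 group lay close together, and MSMO1 rose (log2 fold change 1.15, SE 0.037, adjusted p = 5.67e-06). Its values in HCCLM3 were 13.9, 13.5 and 16.4 FPKM in HCCLM3 with LX2, against 18.8, 19.4 and 18.5 FPKM in HCCLM3 alone, lower in every co-cultured library, and it fell (log2 fold change -0.54, SE 0.099, adjusted p = 0.0117). LSS, lanosterol synthase (chromosome 21, 46188141 to 46228822, minus strand), which closes the sterol rings, stood at 23.4, 22.3 and 22.8 FPKM in LX2 with HCCLM3, against 12.9, 13.2 and 13.9 FPKM in LX2 alone, and rose (log2 fold change 0.75, SE 0.038, adjusted p = 3.9e-05). In HCCLM3 the values of LSS overlapped at 5.905, 6.88 and 6.05 FPKM in HCCLM3 with LX2, against 6.06, 6.94 and 6.63 FPKM in HCCLM3 alone, and did not pass the test (log2 fold change -0.23, SE 0.087, adjusted p = 0.111).

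CYP51A1, the lanosterol demethylase (chromosome 7, 92112153 to 92134803, minus strand), stood at 36.3, 42.3 and 42.3 FPKM in LX2 with HCCLM3, against 19.9, 21.3 and 17.1 FPKM in LX2 alone, and rose (log2 fold change 1.02, SE 0.099, adjusted p = 0.000534). Its values in HCCLM3 were 13.3, 14 and 16.03 FPKM in HCCLM3 with LX2, against 20.5, 22.2 and 20.2 FPKM in HCCLM3 alone, with no overlap, and it fell (log2 fold change -0.70, SE 0.094, adjusted p = 0.00387). NSDHL, which removes methyl groups from sterols (chromosome X, 152830967 to 152869363, plus strand), was not called higher in either line. It fell in HCCLM3, at 33.97, 34.6 and 32.9 FPKM in HCCLM3 with LX2, against 48.3, 41.6 and 43.99 FPKM in HCCLM3 alone (log2 fold change -0.57, SE 0.086, adjusted p = 0.00615). In LX2 it stood at 31.5, 31.3 and 31 FPKM in LX2 with HCCLM3, against 34, 31.6 and 33.8 FPKM in LX2 alone; every co-cultured library was lower, and it did not pass the test (log2 fold change -0.11, SE 0.043, adjusted p = 0.0973). Without replicate 2 of LX2 alone, NSDHL passed as lower (log2 fold change -0.15, adjusted p = 0.0449).

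Among the other genes of this step, squalene synthase FDFT1 (log2 fold change 1.02), squalene epoxidase SQLE (0.70), the sterol reductases HSD17B7 (1.03), TM7SF2 (0.78) and DHCR7 (1.27) and the desaturase SC5D (1.06) rose in LX2. The isomerase EBP did not pass there (0.18) or in HCCLM3 (0.15). SC5D stood at 3.87, 3.88 and 5.03 FPKM in LX2 with HCCLM3, against 3.02, 1.57 and 1.42 FPKM in LX2 alone. Its co-cultured libraries were all higher, but the call (adjusted p = 0.0389) was lost without any of 5 libraries, all but replicate 1 of LX2 alone (adjusted p = 0.0753 to 0.114). HSD17B7 averaged 927.5 counts per LX2 library, against 45.2 for its pseudogene copy HSD17B7P2, so a share of its reads is uncertain.

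In HCCLM3 with LX2, SQLE fell (log2 fold change -0.86, SE 0.13, adjusted p = 0.00666) and so did DHCR7, the reductase that ends a route to cholesterol (log2 fold change -0.66, SE 0.17, adjusted p = 0.0358), although the DHCR7 call was lost without any of 5 libraries, all but replicate 2 of HCCLM3 alone (adjusted p = 0.0577 to 0.0916). TM7SF2 rose, at 1.18, 1.11 and 0.844 FPKM in HCCLM3 with LX2, against 0.548, 0.356 and 0.429 FPKM in HCCLM3 alone (log2 fold change 1.03, SE 0.24, adjusted p = 0.0256). It is a low-level gene in both groups, and the call was lost without replicate 1 or 2 of HCCLM3 with LX2 or without replicate 2 or 3 of HCCLM3 alone (adjusted p = 0.0689 to 0.0827). FDFT1 (0.19), HSD17B7 (-0.27) and SC5D (-0.03) did not pass in HCCLM3.

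**Figure D2:**
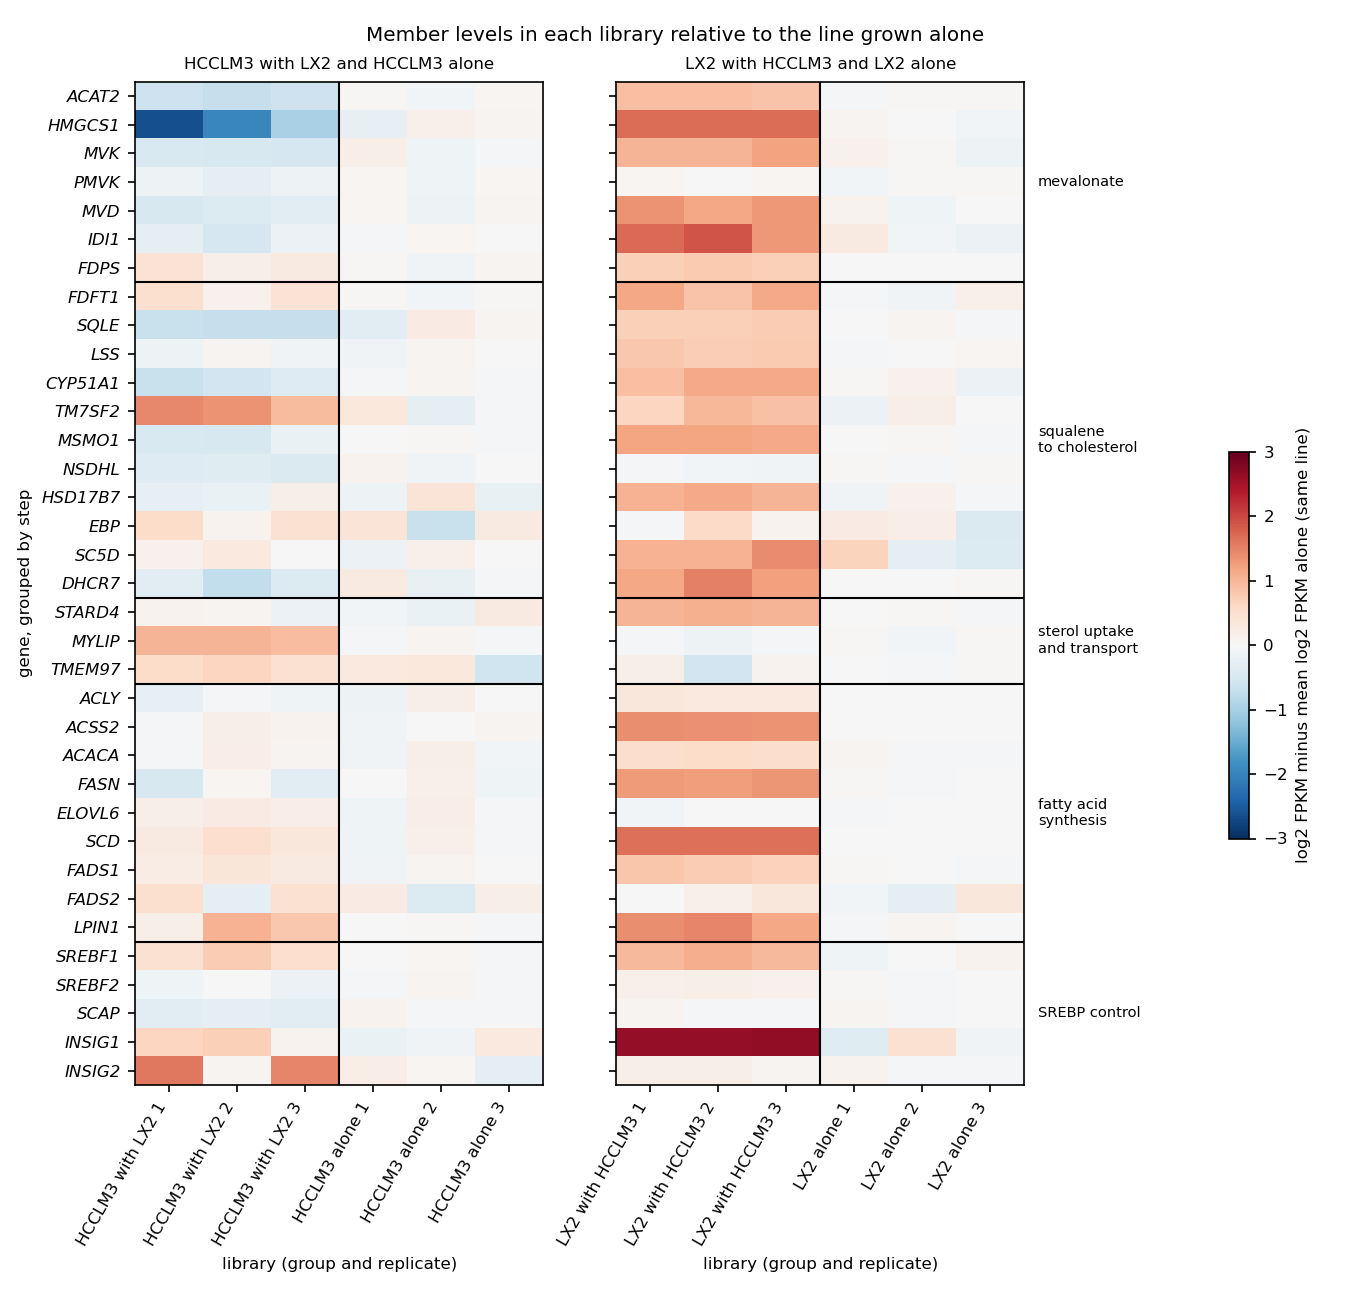
Log2 FPKM of each of the 35 genes in each of the 12 libraries, minus the mean log2 FPKM of the same line alone, on a colour scale from -3 to 3 with genes grouped by step. The 3 libraries of LX2 with HCCLM3 are raised through most genes of the mevalonate, squalene and fatty acid steps, while the 3 libraries of HCCLM3 with LX2 are lowered mainly in the mevalonate and squalene steps.

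Of the 3 genes of sterol uptake and transport, only STARD4 rose in LX2 and only MYLIP rose in HCCLM3. STARD4, a cytosolic carrier of cholesterol between membranes (chromosome 5, 111496033 to 111512590, minus strand), stood at 21.7, 22.5 and 21.5 FPKM in LX2 with HCCLM3, against 10.6, 11.03 and 10.4 FPKM in LX2 alone, with groups far apart (log2 fold change 1.01, SE 0.039, adjusted p = 1.22e-05). HCCLM3 libraries all held STARD4 near 1 FPKM, at 1.22, 1.21 and 0.997 FPKM in HCCLM3 with LX2, against 1.07, 0.993 and 1.36 FPKM in HCCLM3 alone, and did not pass (log2 fold change -0.16, SE 0.17, adjusted p = 0.547). MYLIP is a ubiquitin ligase that marks lipoprotein receptors for degradation, and its gene is a target of the liver X receptors rather than of SREBPs (chromosome 6, 16129086 to 16148248, plus strand). It rose in HCCLM3, at 2.86, 2.87 and 2.68 FPKM in HCCLM3 with LX2, against 1.39, 1.501 and 1.37 FPKM in HCCLM3 alone (log2 fold change 0.81, SE 0.12, adjusted p = 0.00613). Its values in LX2 were 7.45, 6.98 and 7.51 FPKM in LX2 with HCCLM3, against 7.87, 7.33 and 7.97 FPKM in LX2 alone; the groups overlapped and it did not pass (log2 fold change -0.11, SE 0.062, adjusted p = 0.242). TMEM97, a membrane protein of the endoplasmic reticulum that binds the cholesterol transporter NPC1 (chromosome 17, 28319200 to 28328685, plus strand), stood at 33.1, 35.2 and 30.6 FPKM in HCCLM3 with LX2, against 27.4, 27.8 and 14.8 FPKM in HCCLM3 alone. Replicate 3 of HCCLM3 alone was well below the others, and TMEM97 did not pass (log2 fold change 0.33, SE 0.24, adjusted p = 0.374). In LX2 TMEM97 stood at 13.6, 8.09 and 12.98 FPKM in LX2 with HCCLM3, against 12.1, 11.6 and 12.3 FPKM in LX2 alone, with replicate 2 of the co-culture lowest (log2 fold change -0.08, SE 0.19, adjusted p = 0.776). TMEM97 overlaps IFT20 on the other strand, so its counts are uncertain as well.

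Fatty acid synthesis showed the largest rise by level in LX2. There 7 of 9 genes rose, all but ELOVL6 and FADS2, with a median log2 fold change of 0.72. In HCCLM3 0 of 9 passed by edgeR in either direction, with a median of 0.04. At an unadjusted edgeR p under 0.05, 1 was higher (LPIN1) and 2 lower (ACLY, FASN), DESeq2 called ACLY and FASN lower, and limma on log2(FPKM + 1) called SCD higher.

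SCD, the stearoyl-CoA desaturase that makes oleate (chromosome 10, 100347233 to 100364826, plus strand), stood at 591, 596 and 594 FPKM in LX2 with HCCLM3, against 189, 190.3 and 188 FPKM in LX2 alone. The replicates of each group nearly coincided while the groups stood apart (log2 fold change 1.62, SE 0.014, adjusted p = 4.79e-08), and SCD ranked 2 by p among the 19671 genes tested in LX2. In HCCLM3 SCD stood at 82.99, 97.2 and 87.7 FPKM in HCCLM3 with LX2, against 63.1, 76.9 and 67.1 FPKM in HCCLM3 alone. Every co-cultured library was above every library alone in FPKM, but the gene did not pass with TMM scaling (log2 fold change 0.20, SE 0.090, adjusted p = 0.153), and passed as higher on library totals (log2 fold change 0.38, adjusted p = 0.0318). FASN, fatty acid synthase (chromosome 17, 82078338 to 82098294, minus strand), stood at 103, 102 and 106 FPKM in LX2 with HCCLM3, against 43.9, 41.8 and 42.1 FPKM in LX2 alone, and rose (log2 fold change 1.25, SE 0.029, adjusted p = 1.75e-06). In HCCLM3 the values of FASN overlapped at 64.9, 95.2 and 73.5 FPKM in HCCLM3 with LX2, against 90.01, 101 and 83.2 FPKM in HCCLM3 alone and did not pass (log2 fold change -0.40, SE 0.14, adjusted p = 0.0909). Without replicate 2 of HCCLM3 with LX2, its highest co-cultured library, FASN passed as lower (log2 fold change -0.56, adjusted p = 0.0285).

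ACSS2, which makes acetyl-CoA from acetate (chromosome 20, 34872146 to 34927962, plus strand), stood at 14.4, 14.2 and 13.95 FPKM in LX2 with HCCLM3, against 5.45, 5.61 and 5.51 FPKM in LX2 alone, and rose (log2 fold change 1.33, SE 0.038, adjusted p = 3.65e-06). In HCCLM3 ACSS2 stood at 4.19, 4.91 and 4.71 FPKM in HCCLM3 with LX2, against 4.03, 4.404 and 4.63 FPKM in HCCLM3 alone, with overlap (log2 fold change -0.09, SE 0.095, adjusted p = 0.568). ACLY, the citrate lyase that supplies cytosolic acetyl-CoA (chromosome 17, 41866917 to 41930542, minus strand), stood at 52.7, 51.4 and 51.4 FPKM in LX2 with HCCLM3, against 41.4, 41.4 and 42.2 FPKM in LX2 alone. Its rise in LX2 was small beside those of FASN and SCD but without overlap (log2 fold change 0.28, SE 0.024, adjusted p = 0.000313). In HCCLM3 ACLY stood at 36.2, 42.1 and 39.8 FPKM in HCCLM3 with LX2, against 38.7, 49.02 and 42.6 FPKM in HCCLM3 alone and did not pass (log2 fold change -0.31, SE 0.096, adjusted p = 0.0624). Acetyl-CoA carboxylase ACACA (log2 fold change 0.50), the desaturase FADS1 (0.72) and the phosphatidate phosphatase LPIN1 (1.31) rose in LX2 as well. The elongase ELOVL6 (-0.04) and the desaturase FADS2 (0.12) did not pass. FADS1 and FADS2 overlap each other on opposite strands, and ACSS2 overlaps GGT7 likewise, so their counts are uncertain. FADS2 also overlaps FEN1 on the same strand, which a strand setting would not separate. FEN1 averaged 11499.5 counts per LX2 library against 1762 for FADS2, and 10722 against 11023 in HCCLM3. In HCCLM3, LPIN1 (log2 fold change 0.54) passed as higher without replicate 1 of HCCLM3 with LX2 (0.74, adjusted p = 0.0401).

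**Figure D3:**
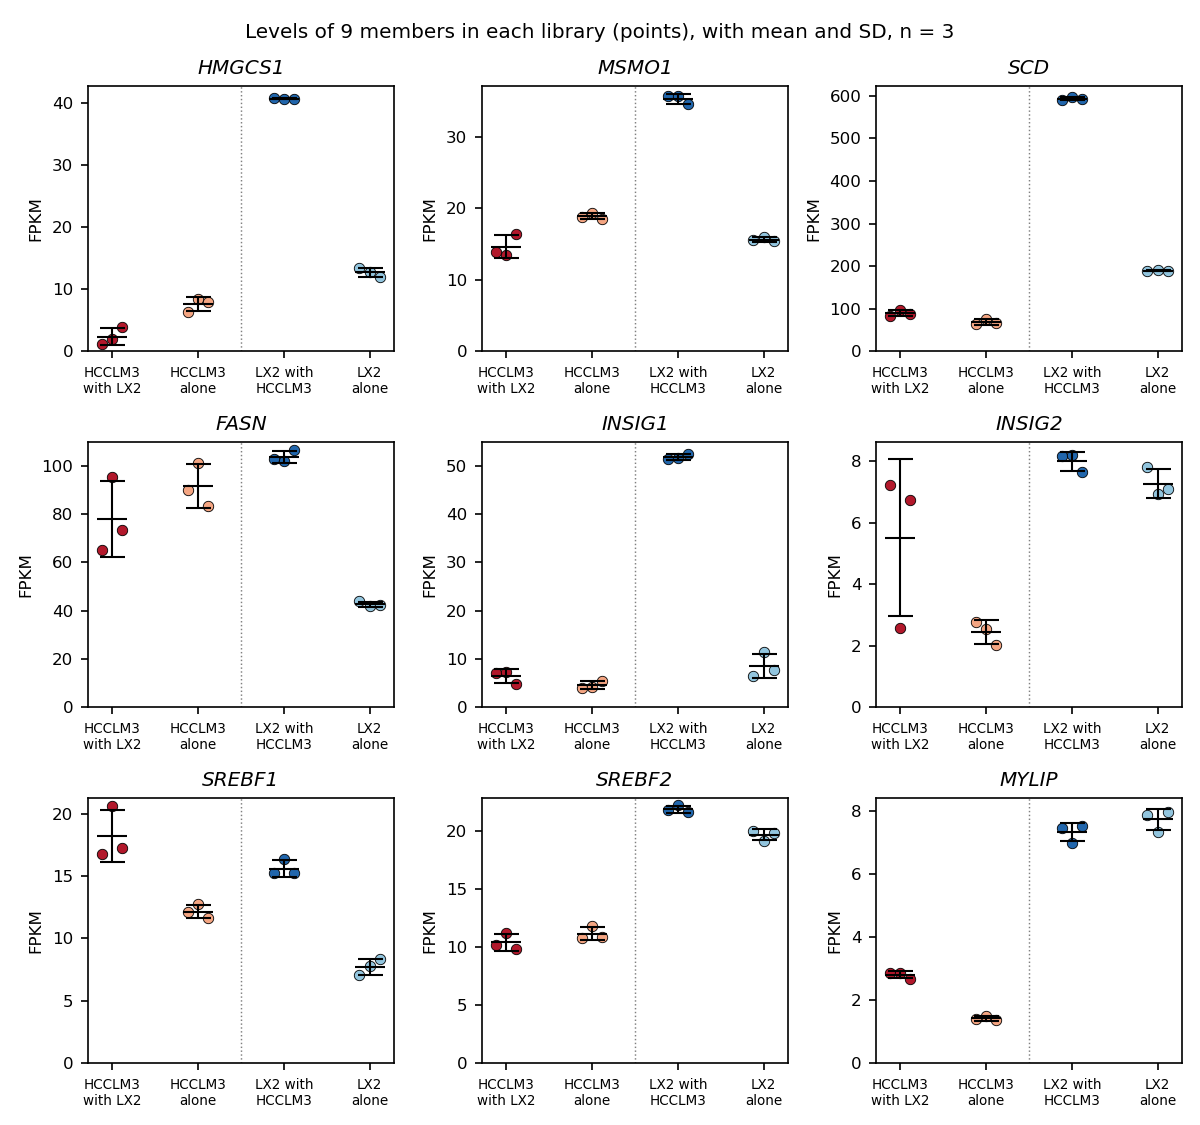
FPKM in each library (points), with the mean and SD of each group (n = 3), for HMGCS1, MSMO1, SCD, FASN, INSIG1, INSIG2, SREBF1, SREBF2 and MYLIP in the 4 groups. SCD stands at 591 to 596 FPKM in LX2 with HCCLM3 and 188 to 190.3 FPKM in LX2 alone, and INSIG2 in HCCLM3 with LX2 is uneven, at 2.59 to 7.22 FPKM.

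Among the 5 genes of SREBP control, INSIG1, SREBF1 and SREBF2 rose in LX2, and SREBF1 rose and SCAP fell in HCCLM3. INSIG1, the retention protein whose own gene is an SREBP target (chromosome 7, 155297776 to 155310233, plus strand), stood at 51.3, 51.5 and 52.4 FPKM in LX2 with HCCLM3, against 6.47, 11.4 and 7.79 FPKM in LX2 alone. Its log2 fold change was the largest of the 35 genes in LX2 (log2 fold change 2.57, SE 0.20, adjusted p = 0.000234). In HCCLM3 INSIG1 stood at 7.06, 7.39 and 4.81 FPKM in HCCLM3 with LX2, against 3.91, 4.19 and 5.49 FPKM in HCCLM3 alone, with overlap, and did not pass (log2 fold change 0.34, SE 0.20, adjusted p = 0.269). INSIG2, the other retention protein (chromosome 2, 118088452 to 118110997, plus strand), did not pass in LX2, at 8.16, 8.19 and 7.64 FPKM in LX2 with HCCLM3, against 7.795, 6.93 and 7.09 FPKM in LX2 alone (log2 fold change 0.11, SE 0.066, adjusted p = 0.268). In HCCLM3 INSIG2 stood at 7.22, 2.59 and 6.72 FPKM in HCCLM3 with LX2, against 2.78, 2.54 and 2.03 FPKM in HCCLM3 alone. Replicates 1 and 3 of the co-culture were well above HCCLM3 alone and replicate 2 was level with it, and it did not pass by edgeR (log2 fold change 1.01, SE 0.38, adjusted p = 0.105), while DESeq2 called it higher (adjusted p = 0.0195). Without that library INSIG2 passed as higher (log2 fold change 1.35, adjusted p = 0.00986).

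SREBF1 (chromosome 17, 17810399 to 17837011, minus strand) stood at 15.2, 16.4 and 15.2 FPKM in LX2 with HCCLM3, against 7.04, 7.76 and 8.34 FPKM in LX2 alone, and rose (log2 fold change 0.99, SE 0.069, adjusted p = 0.000137). In HCCLM3 SREBF1 stood at 16.8, 20.6 and 17.3 FPKM in HCCLM3 with LX2, against 12.1, 12.7 and 11.6 FPKM in HCCLM3 alone, without overlap, and rose by less (log2 fold change 0.41, SE 0.091, adjusted p = 0.0212); the difference between lines is tested below. The HCCLM3 call was lost without replicate 3 of HCCLM3 with LX2 or replicate 1 or 3 of HCCLM3 alone (adjusted p = 0.054 to 0.0753). SREBF1 overlaps RAI1, so a share of its counts is uncertain. SREBF2 (chromosome 22, 41833079 to 41907307, plus strand) was steadier, at 21.8, 22.3 and 21.7 FPKM in LX2 with HCCLM3, against 20.1, 19.2 and 19.9 FPKM in LX2 alone. It passed narrowly in LX2 (log2 fold change 0.12, SE 0.031, adjusted p = 0.0259), and the call was lost without any of 5 libraries, all but replicate 1 of LX2 alone (adjusted p = 0.0565 to 0.0809). In HCCLM3 SREBF2 stood at 10.2, 11.3 and 9.84 FPKM in HCCLM3 with LX2, against 10.8, 11.8 and 10.9 FPKM in HCCLM3 alone and did not pass (log2 fold change -0.26, SE 0.078, adjusted p = 0.0535). SCAP (chromosome 3, 47413681 to 47477126, minus strand) stood at 14.7, 15.2 and 14.8 FPKM in HCCLM3 with LX2, against 20.1, 18.2 and 17.9 FPKM in HCCLM3 alone. It fell in HCCLM3 without overlap (log2 fold change -0.49, SE 0.079, adjusted p = 0.00727), and in LX2 its values overlapped at 14.4, 13.1 and 13.3 FPKM in LX2 with HCCLM3, against 14.3, 12.98 and 13.6 FPKM in LX2 alone (log2 fold change -0.03, SE 0.055, adjusted p = 0.714).

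Summed levels were higher in LX2 with HCCLM3 in each of the 5 steps, and in HCCLM3 with LX2 they were lower in the mevalonate and squalene steps. The 35 genes together stood at 1499 ± 14.6 FPKM in LX2 with HCCLM3 and 713 ± 10.3 FPKM in LX2 alone (SD, n = 3 each), a ratio of 2.10. In HCCLM3 they stood at 672 ± 7.16 FPKM with LX2 and 690.2 ± 8.16 FPKM alone, a ratio of 0.974. FPKM sums are weighted towards abundant genes and are not scaled by TMM. The fatty acid step gave most of the LX2 difference, at 839 ± 0.948 FPKM in LX2 with HCCLM3 and 328 ± 1.93 FPKM in LX2 alone. SCD alone made up 70.7% ± 0.250 of that step in LX2 with HCCLM3 and 57.7% ± 0.368 in LX2 alone. In HCCLM3 the fatty acid step stood at 251 ± 24.0 FPKM with LX2 and 243 ± 19.6 FPKM alone, within the spread of replicates. SCD made up 35.6% ± 0.568 of it in HCCLM3 with LX2 and 28.4% ± 0.891 in HCCLM3 alone.

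The mevalonate step stood at 240.4 ± 7.42 FPKM in LX2 with HCCLM3 and 135 ± 1.32 FPKM in LX2 alone, a ratio of 1.78. Its ratio in HCCLM3 was 0.886, with 150.3 ± 8.34 FPKM in co-culture and 169.5 ± 9.81 FPKM alone. From squalene to cholesterol the ratio was 1.64 in LX2 and 0.880 in HCCLM3. The genes of SREBP control had ratios of 1.95 in LX2 and 1.13 in HCCLM3. Their LX2 sums were 110.9 FPKM with HCCLM3 and 56.9 FPKM alone, of which INSIG1 held 51.8 and 8.55 FPKM. The median log2 fold change of that step in LX2 was 0.12. The genes of uptake and transport had a ratio of 1.34 in LX2, where only STARD4 rose and their median log2 fold change was -0.08. In HCCLM3 they stood at 36.9 ± 2.496 FPKM with LX2 and 25.9 ± 7.25 FPKM alone, a ratio of 1.42, with replicate 3 of HCCLM3 alone lowest at 17.6 FPKM.

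**Figure D4:**
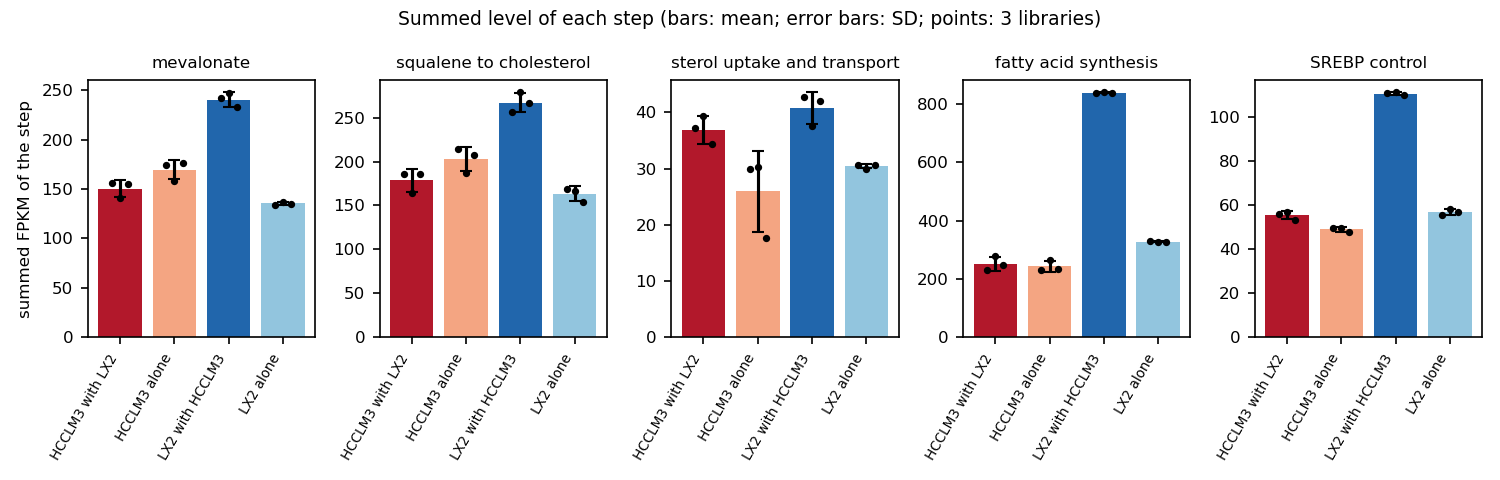
Summed FPKM of the genes of each step in the 4 groups, as bars of the mean with the SD and the 3 libraries as points. The fatty acid step in LX2 with HCCLM3, at 839 FPKM, stands above every other bar.

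Whether co-culture acted differently on the lines was tested over all 12 libraries, as the log2 fold change in HCCLM3 minus that in LX2. The difference passed for 29 of the 35 genes, below 0 for 28 and above 0 for MYLIP, where 21.2% of all 21511 genes tested were called (11.5% below 0, 9.65% above). The median difference of the 35 was -0.86, against 0.003 for all genes tested. All 7 mevalonate genes, 9 of 11 from squalene to cholesterol, 7 of 9 of fatty acid synthesis and 4 of 5 of SREBP control differed with the change in HCCLM3 below that in LX2. The widest was HMGCS1 (-3.55, SE 0.44, adjusted p = 0.000224), followed by INSIG1 (-2.26, SE 0.30, adjusted p = 0.000369). ACAT2 had the smallest p (-1.70, SE 0.086, adjusted p = 5.85e-07), and MSMO1 (-1.71, SE 0.11, adjusted p = 2.32e-06), SCD (-1.45, SE 0.092, adjusted p = 2.66e-06), ACSS2 (-1.45, SE 0.093, adjusted p = 2.76e-06) and MVD (-1.83, SE 0.14, adjusted p = 7.05e-06) came next.

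MYLIP ran the other way, with a change in HCCLM3 above that in LX2 (0.89, SE 0.12, adjusted p = 0.000419). SREBF1, which rose in both lines, rose less in HCCLM3 (-0.60, SE 0.12, adjusted p = 0.00426), and TM7SF2 showed no difference that passed (0.21, SE 0.31, adjusted p = 0.712). FASN and ACLY, which did not pass in HCCLM3, differed between lines (-1.69, SE 0.16, adjusted p = 3.6e-05 for FASN and -0.62, SE 0.10, adjusted p = 0.00136 for ACLY). The 6 genes without a call were TM7SF2, EBP, TMEM97, ELOVL6, FADS2 and INSIG2. INSIG2 passed without replicate 2 of HCCLM3 with LX2 (1.21, adjusted p = 0.00146). The calls of PMVK (without replicate 1 of LX2 alone, adjusted p = 0.056), SC5D and LPIN1 were lost without single libraries. For SC5D every library of the 12 except replicate 1 of LX2 alone had this effect (adjusted p = 0.0567 to 0.106). For LPIN1 8 of the 12 had it, all but replicates 1 and 2 of HCCLM3 with LX2, replicate 3 of HCCLM3 alone and replicate 3 of LX2 with HCCLM3 (adjusted p = 0.0512 to 0.0868).

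Another 12 genes belong to the machinery that processes SREBPs and turns over INSIG and the sterol enzymes. Of these, 1 rose and 6 fell in LX2, where 15.4% of all genes tested were called higher and 16.6% lower (median -0.11), and 1 fell in HCCLM3, where 11.6% of all genes tested were called lower (median 0.05). The one that rose in LX2 was MBTPS2, the second of the proteases that cut SREBPs, at 16, 15.8 and 15.6 FPKM in LX2 with HCCLM3, against 11.2, 10.9 and 10.8 FPKM in LX2 alone (log2 fold change 0.50, SE 0.031, adjusted p = 8.46e-05). RNF139, a ubiquitin ligase of the endoplasmic reticulum, fell in LX2 (log2 fold change -0.47, SE 0.054, adjusted p = 0.00105), and so did ERLIN1, which helps degrade proteins there (log2 fold change -0.27, SE 0.031, adjusted p = 0.00124). VCP, the ATPase that pulls ubiquitinated proteins out of the membrane, fell in HCCLM3, at 109, 113 and 108 FPKM in HCCLM3 with LX2, against 156, 147 and 149 FPKM in HCCLM3 alone (log2 fold change -0.61, SE 0.063, adjusted p = 0.00168).

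Of 11 genes of the liver X receptors and cholesterol efflux, which respond to sterol excess, 2 rose and 3 fell in LX2 (11 tested) and 2 rose and 2 fell in HCCLM3 (9 tested). Their medians were 0.05 in LX2 and 0.25 in HCCLM3. Over all genes tested, 15.4% were called higher and 16.6% lower in LX2, and 10.1% higher and 11.6% lower in HCCLM3. ABCA1, which exports cholesterol to apolipoproteins, rose in both lines. In HCCLM3 ABCA1 stood at 2.71, 3.57 and 3.16 FPKM in HCCLM3 with LX2, against 0.880, 1.02 and 0.811 FPKM in HCCLM3 alone (log2 fold change 1.63, SE 0.14, adjusted p = 0.000954). In LX2 it stood at 0.712, 0.736 and 0.848 FPKM in LX2 with HCCLM3, against 0.301, 0.355 and 0.235 FPKM in LX2 alone (log2 fold change 1.33, SE 0.17, adjusted p = 0.00175). ABCG1, the exporter to high-density lipoprotein, fell in LX2, at 3.78, 3.12 and 3.85 FPKM in LX2 with HCCLM3, against 10.1, 9.696 and 9.44 FPKM in LX2 alone (log2 fold change -1.47, SE 0.088, adjusted p = 7.43e-05). The receptor partner RXRA fell in LX2 (-0.36) and in HCCLM3 (-0.55), and NR1H2, a liver X receptor, fell in HCCLM3 (log2 fold change -0.38).

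Of 15 genes of sterol storage and movement inside the cell, 4 rose and 2 fell in LX2 (14 tested, median 0.17), and 2 fell in HCCLM3 (13 tested, median -0.03). The shares over all genes tested were 15.4% higher and 16.6% lower in LX2, and 11.6% lower in HCCLM3. NPC1, which lets cholesterol out of lysosomes, stood at 12.8, 11.9 and 12.3 FPKM in LX2 with HCCLM3, against 6.68, 6.296 and 6.48 FPKM in LX2 alone, and rose (log2 fold change 0.90, SE 0.042, adjusted p = 2.62e-05). SOAT1, which esterifies cholesterol for storage, stood at 12.4, 11.9 and 12.7 FPKM in LX2 with HCCLM3, against 8.36, 8.202 and 7.72 FPKM in LX2 alone, and rose (log2 fold change 0.58, SE 0.046, adjusted p = 0.000228). The sterol transporter GRAMD1B fell in LX2 (log2 fold change -0.41) and in HCCLM3 (-0.42), and OSBPL9, a lipid carrier, fell in HCCLM3 (-0.33).

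Of 10 genes that supply citrate, acetyl-CoA and NADPH, 4 rose and 1 fell in LX2 (median 0.06), and 5 fell in HCCLM3 (median -0.26). The shares over all genes tested were 15.4% higher and 16.6% lower in LX2, and 11.6% lower in HCCLM3. IDH1, which makes NADPH in the cytosol, stood at 46.2, 51.2 and 57.9 FPKM in LX2 with HCCLM3, against 30.3, 28.8 and 29.4 FPKM in LX2 alone, and rose (log2 fold change 0.78, SE 0.081, adjusted p = 0.000708). The transketolase TKT rose there (0.19) and the malic enzyme ME1 fell (-0.34). In HCCLM3, AACS, which activates acetoacetate for lipid synthesis, stood at 5.596, 5.74 and 5.61 FPKM in HCCLM3 with LX2, against 7.21, 7.62 and 7.404 FPKM in HCCLM3 alone, and fell (log2 fold change -0.56, SE 0.061, adjusted p = 0.00206). The pyruvate carrier MPC1 (-0.59) and PGD of the pentose phosphate pathway (-0.42) fell there too.

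Of 26 genes of fatty acid elongation, activation and triglyceride synthesis, 8 rose and 4 fell in LX2 (23 tested, median 0.18), and 1 rose in HCCLM3 (21 tested, median 0.06). The shares over all genes tested were 15.4% higher and 16.6% lower in LX2, and 10.1% higher in HCCLM3. ACSL3, which activates fatty acids at lipid droplets, stood at 34.6, 34.05 and 30.95 FPKM in LX2 with HCCLM3, against 16.9, 15.4 and 17.7 FPKM in LX2 alone, and rose (log2 fold change 0.97, SE 0.067, adjusted p = 0.000129). SCD5, the paralogue of SCD, fell in LX2 (log2 fold change -0.63, SE 0.056, adjusted p = 0.000382), as did LPIN2 (-0.45), a paralogue of LPIN1. The gene that rose in HCCLM3 was MLXIPL, a glucose-responsive transcription factor of lipogenic genes, at 0.766, 0.950 and 0.785 FPKM in HCCLM3 with LX2, against 0.286, 0.150 and 0.199 FPKM in HCCLM3 alone (log2 fold change 1.79, SE 0.27, adjusted p = 0.00621).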

How the data were processed

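Each line has 1 table of genes, in which the authors deposited a raw count and an FPKM value per library (per the file headers). FPKM (fragments scaled by gene length and library size) were used as deposited, with a count of 0 read as 0 FPKM. The tools in the submitters' processing notes are HISAT2 2.0, StringTie 1.3.0 and Bowtie 0.12.2, without roles. The build named there, mm8, is a mouse build, while the gene identifiers are human and the coordinates printed are those of the tables, which match GRCh38. The labels' protocols name poly(A) selection and paired ends, and speak of adipose RNA, which is neither line. No strand setting for the counting is given in the sources used.

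Counts were tested with edgeR 4.0.16 in R 4.3.3 (filterByExpr with minimum count 10 and minimum total 15, TMM, quasi-likelihood test, Benjamini-Hochberg adjustment over all genes tested, two-sided, threshold 0.05), in 1 fit per line and, for the difference between lines, over all 12 libraries joined on gene identifier. SE is the log2 fold change divided by the root of its F statistic. The procedure was tested on simulated data. Adjusted p-values are from edgeR unless another tool is named, and the precision of counts rests on totals of at least 61836616 per library. Replicates differed by more than sampling noise (chi-square over its degrees of freedom was 39.8 to 100.2) and were all kept as separate libraries. Alternatives were DESeq2 1.42.0, library totals, no filter, limma 3.58.1 on log2(FPKM + 1) and on log2(FPKM + 0.1), a replicate block, and leaving out each library.

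Values in every library are given by rule for the members with the smallest p in each step and line (2 each), the members of SREBP control, and the 5 with the smallest p for the difference. Outside this rule they are also given for SC5D in LX2 and TM7SF2 in HCCLM3. Up to 3 called genes are named per other list. The members, the 8 other lists (109 genes) and the marker lists were chosen with earlier results of these data known. Summaries used Python 3.11.15, pandas 2.3.3, NumPy 2.4.6, SciPy 1.17.1 and matplotlib 3.10.9. Motifs were searched on both strands of RefSeq promoters.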

Additional observations from a re-analysis of the deposited data

Results flagged for a closer look

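The effect of co-culture differed between lines, by edgeR's test of the difference itself, for 29 of the 35 genes. The difference is the log2 fold change in HCCLM3 (with LX2 over alone) minus that in LX2 (with HCCLM3 over alone). Among the called genes selected by rule for per-library values, it was -3.55 for HMGCS1, -2.26 for INSIG1, -1.83 for MVD and -1.76 for CYP51A1. It was -1.74 for MVK, -1.71 for MSMO1, -1.70 for ACAT2 and -1.69 for FASN. It was -1.45 for SCD, -1.45 for ACSS2, -1.20 for STARD4 and -1.0 for LSS. Differences nearer to 0 were found for ACLY (-0.62), FDPS (-0.61), SREBF1 (-0.60), SCAP (-0.49), NSDHL (-0.49) and SREBF2 (-0.42). Called outside that selection were IDI1 (-2.10), DHCR7 (-1.96), SQLE (-1.59), HSD17B7 (-1.34), SC5D (-1.12), FDFT1 (-0.86), LPIN1 (-0.80), FADS1 (-0.63), ACACA (-0.62) and PMVK (-0.41). MYLIP had the only called difference above 0, at 0.89.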

How the results depend on the processing

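No called member changed direction under any alternative run. The number of the 35 genes called in HCCLM3 was 15 in the main analysis, and it was 19 with DESeq2 (4 higher, 15 lower), 15 on library totals (6 higher, 9 lower), 14 with no filter on low counts, 13 and 14 with limma on log2(FPKM + 1) and log2(FPKM + 0.1), and 10 to 13 with a library left out. In LX2 26 were called, and 24 to 26 under the alternatives. For the difference 29 were called, and 25 to 29 under the alternatives. Called under every alternative were 9 of 15 in HCCLM3 (ACAT2, CYP51A1, MSMO1, MVD, MVK, MYLIP, NSDHL, SCAP and SQLE), 24 of 26 in LX2 (all but SC5D and SREBF2) and 25 of 29 for the difference (all but PMVK, SC5D, LPIN1 and SREBF2). The HCCLM3 calls of PMVK, IDI1 and DHCR7 were also lost on library totals and with limma. DESeq2 added ACLY, FASN, SREBF2 and INSIG2, and library totals added FDFT1, SCD and FADS1 as higher.

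The HCCLM3 median log2 fold change of the 35 was -0.20 to -0.11 with a library left out, 0.013 on library totals, and 0.0017 and 0.0053 with limma on log2(FPKM + 1) and log2(FPKM + 0.1). Library totals also raised the median of all genes, to 0.21, and the deposited FPKM carry no TMM factors. The LX2 median was 0.73 with limma on log2(FPKM + 1), where the pseudocount lowers fold changes, and 0.82 to 0.88 with a library left out.

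Genes without a call changed sign. In HCCLM3 these were, on library totals, SC5D (0.14), STARD4 (0.013), ACSS2 (0.088) and ACACA (0.085), with limma on log2(FPKM + 1), SC5D (0.078), STARD4 (0.0017), ACSS2 (0.064) and ACACA (0.069), and on log2(FPKM + 0.1), SC5D (0.13), STARD4 (0.0053), ACSS2 (0.076) and ACACA (0.077). The difference turned positive for EBP (0.11 on totals, 0.15 and 0.16 with limma) and FADS2 (0.084, 0.089 and 0.055). With a library left out, HCCLM3 values ran from -0.12 to 0.36 for EBP, -0.11 to 0.043 for SC5D, -0.019 to 0.13 for ELOVL6 and -0.13 to 0.27 for FADS2. LX2 values ran from -0.031 to 0.034 for PMVK, -0.024 to 0.30 for EBP, -0.22 to 0.12 for TMEM97, -0.0099 to 0.31 for FADS2 and -0.072 to 0.0048 for SCAP. Differences ran from -0.33 to 0.15 for EBP, -0.00027 to 0.15 for ELOVL6 and -0.28 to 0.13 for FADS2. The cause was not tested.

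With the replicate block, 18 were called in HCCLM3 (3 higher, 15 lower, with ACLY, FASN and SREBF2 added), 24 in LX2 and 27 for the difference. The deviations of same-numbered libraries correlated at 0.017, 0.045 and 0.023 in HCCLM3 and -0.039, 0.011 and -0.041 in LX2, so the numbers were not taken as pairs, although in HCCLM3 every library correlated best with its own number. Restricting promoters to the bases before the start left the E-box and the shorter sterol element each in 9.68% of the 31, against 12.9% (6.49% and 4.72% of all promoters). The shorter sterol element was searched after seeing the data. With 3 libraries a group, differences within the spread of low-level or uneven genes, such as INSIG2 and TMEM97 in HCCLM3, are not resolved.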

Other observations

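Of 13 genes of the non-sterol branches of the mevalonate pathway, which lead to ubiquinone, dolichol and protein prenylation, 12 were tested in each line. In LX2 with HCCLM3 1 rose (RABGGTB, a subunit of a prenyltransferase, log2 fold change 0.34) and 1 fell (NUS1, of dolichol synthesis, -0.41), with a median of 0.11. In HCCLM3 with LX2 PGGT1B, a subunit of another prenyltransferase, fell (log2 fold change -0.41), and the list had a median of -0.20. The shares over all genes tested were 15.4% higher and 16.6% lower in LX2, and 11.6% lower in HCCLM3.

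Of 9 genes of oxysterol and bile acid synthesis, 1 rose and 3 fell in LX2 (5 tested, median -0.57), and 2 fell in HCCLM3 (4 tested, median -0.40). The shares over all genes tested were 15.4% higher and 16.6% lower in LX2, and 11.6% lower in HCCLM3. CYP27A1, the sterol hydroxylase of mitochondria, rose in LX2 (log2 fold change 1.16, SE 0.28, adjusted p = 0.0229). In HCCLM3 it stood at 30.7, 26.5 and 30.5 FPKM in HCCLM3 with LX2, against 47.2, 40.98 and 44.4 FPKM in HCCLM3 alone, and fell (log2 fold change -0.76, SE 0.10, adjusted p = 0.00391), as did HSD3B7 (-0.35). EPHX1, an epoxide hydrolase, stood at 21.1, 20.8 and 21.9 FPKM in LX2 with HCCLM3, against 80.9, 80.9 and 76.2 FPKM in LX2 alone, with groups far apart, and fell (log2 fold change -1.93, SE 0.040, adjusted p = 1.11e-06). CYP39A1, which hydroxylates oxysterols, fell in LX2 as well (-1.03).

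Of 13 genes of fatty acid oxidation, 2 rose and 2 fell in LX2 (median 0.09), and 1 rose in HCCLM3 (median 0.01). The shares over all genes tested were close to these, at 15.4% higher and 16.6% lower in LX2, and 10.1% higher in HCCLM3. CPT1A, which passes fatty acids into mitochondria, stood at 15.8, 14.6 and 15.2 FPKM in LX2 with HCCLM3, against 20.9, 20.02 and 20.3 FPKM in LX2 alone, and fell (log2 fold change -0.45, SE 0.039, adjusted p = 0.000333). The thiolase ACAA2 fell there (-0.31), and CPT2 rose (0.33). The gene that rose in HCCLM3 was CPT1B, the muscle form of CPT1A (log2 fold change 1.38, SE 0.20, adjusted p = 0.00504).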
